A study of Mus musculus with 6 samples.

Results

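MyomiRs are microRNAs (miRNAs) enriched in heart and skeletal muscle, and 6 named rows of the deposited miRNA table were followed here: miR-1a-3p, miR-1b-5p, miR-133a-3p, miR-206-3p, miR-499-5p and miR-378a-3p. They were matched by name among the 620 miRNAs of the table, by a rule that uses no measured value, although the set was chosen with earlier results of these data known. The counts of miR-1b-5p equalled those of miR-1a-3p in 6 of 6 libraries, so the 6 names stand for 5 sets of reads and miR-1b-5p is not described again. The libraries hold small RNA of extracellular vesicles, membrane particles shed by cells, from peripheral blood mononuclear cells (PBMCs) of mice labelled as wild type (WT). There were 3 libraries of vesicles labelled untreated (control) and 3 labelled IS-stimulated. The labels do not spell out IS, and give no dose, duration, strain or age. Nor do they say that replicates are separate mice or cultures, and the p-values cover no more than the spread among these libraries, possibly a technical one.

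A miRNA binds messenger RNAs that pair with its seed, bases 2 to 8 from its 5′ end, and lowers their translation and stability. In muscle, miR-1 and miR-133a are cut from shared primary transcripts under the control of myogenic transcription factors. miR-206 is largely restricted to skeletal muscle and has the same seed as miR-1, and miR-499 is made from an intron of a myosin gene used in heart and slow muscle fibres. miR-378a is made from an intron of the coactivator gene Ppargc1b and is expressed in many metabolically active tissues, so it is the least muscle-restricted of the set. Muscle miRNAs also circulate in blood, where they are known as markers of muscle and heart injury.

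Of the 6 members, 2 had an entry in the RefSeq table of mature miRNAs (GRCm38.p6), and both are shown. The next 4 sequences have a row in the deposited table too. miR-208b-3p is shown for its seed beside that of miR-499-5p, miR-133b-3p because its hairpin neighbours that of miR-206, and miR-378c and miR-378b because they are near-identical relatives of each other. The seed is in capitals and each sequence runs 5′ to 3′.
miR-206-3p: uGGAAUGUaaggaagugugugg
miR-499-5p: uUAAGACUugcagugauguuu
miR-208b-3p: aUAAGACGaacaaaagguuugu
miR-133b-3p: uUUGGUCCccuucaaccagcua
miR-378c: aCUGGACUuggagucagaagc
miR-378b: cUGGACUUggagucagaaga
The seeds of miR-499-5p and miR-208b-3p differ at 1 base, U8G, counted from the 5′ end with the base of miR-499-5p first. miR-378b and miR-378c share a run of 19 bases, which starts at base 1 of miR-378b and at base 2 of miR-378c, so their seeds are shifted by 1 base against each other. Among the 483 of the 620 rows with a RefSeq entry, no other miRNA had the seed of miR-206-3p or of miR-499-5p. miR-1a-3p, whose seed is that of miR-206, has no entry. The search could therefore not find it, nor any other row without an entry.

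The hairpins described here lie on the plus strand of chromosomes 1 and 2 (GRCm38, GENCODE annotation, which need not be the build behind the counts). Mir206 (chr1:20679010-20679082) and Mir133b (chr1:20682769-20682887) overlap exons of the long non-coding RNA gene Gm28653 and are 3686 bases apart. Mir499 (chr2:155622880-155622958) lies in an intron of Myh7b, a myosin heavy chain gene. Mir1a-1 (chr2:180389048-180389124) and Mir133a-2 (chr2:180398379-180398482) are separated by 9254 bases, and no other annotated gene overlaps either hairpin.

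Library totals ran from 125731 to 435468 miRNA counts, so that 1 count was worth 2.30 to 7.95 CPM (counts per 1000000 counts of the library). These totals include rows that repeat the counts of another row, by a share that differs between libraries. One of them, miR-122b-3p, repeats miR-122-5p, which had 112546 CPM in control 1 and 23470 CPM in control 2. The shallowest libraries were IS 3 (125731) and IS 1 (149202), and the deepest were control 3 (435468) and IS 2 (317323). Control 3 and IS 2 also had the most miRNAs with counts, 513 and 441, against 276 to 301 in the other 4. Of the 7 leukocyte miRNAs checked against the PBMC label, 6 had counts in every library, and miR-155-5p was at 0 in IS 1. Control 3, at 26259 CPM, and IS 2, at 32866 CPM, had the highest summed levels of these miRNAs, and the other 4 libraries had 9982 to 12895 CPM. Most of the sum in control 3 and IS 2 was miR-142a-5p, at 20128 and 23909 CPM. Red cell miRNAs summed to 93435 to 223132 CPM and liver miRNAs to 24444 to 113075 CPM, and each of these sums was above the leukocyte sum in 6 of 6 libraries. Ranges were 4834 to 26477 CPM for miRNAs of vessel wall and platelets and 6791 to 11702 CPM for those of smooth muscle and fibroblasts. The vessel wall and platelet sum was above the leukocyte sum except in control 3 and IS 2. Neuron miRNAs summed to 1932 to 5977 CPM, most of it miR-128-3p (1330 to 5654 CPM), and epithelium miRNAs to 222 to 1121 CPM. The endocrine miRNA miR-375-3p was at 0 in control 1 and IS 1 and at most 59.5 CPM elsewhere. The part of these cell types in the myomiR levels was not tested.

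MyomiRs were present in all 6 libraries, and none of them passed the test between groups. By the ratio of group means, miR-1a-3p was 3.09 times as high in IS as in control and miR-206-3p 2.46 times. Their order is not firm, since the log2 fold change of miR-206-3p was the higher with limma on log2(TPM + 1), at 2.12 against 1.51. For miR-133a-3p, miR-499-5p and miR-378a-3p the ratio of means was 1.08, 0.945 and 0.911. In the edgeR quasi-likelihood test 0 of the 6 names had a Benjamini-Hochberg adjusted p under 0.05, against 0% of all 206 miRNAs tested (3 had an unadjusted p under 0.05, of which 2 were miR-1a-3p and miR-1b-5p, a single set of reads). DESeq2 also called 0, with 14 of 620 at an unadjusted p under 0.05. The 3 IS libraries stood apart from the 3 control libraries for 0 of the 5 distinct members and for 1.46% of the miRNAs tested. The log2 fold change was positive for 3 of the 5, against 52.9% of the miRNAs tested, and their median was 0.28, against 0.022 over all of them.

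**Figure D1:**
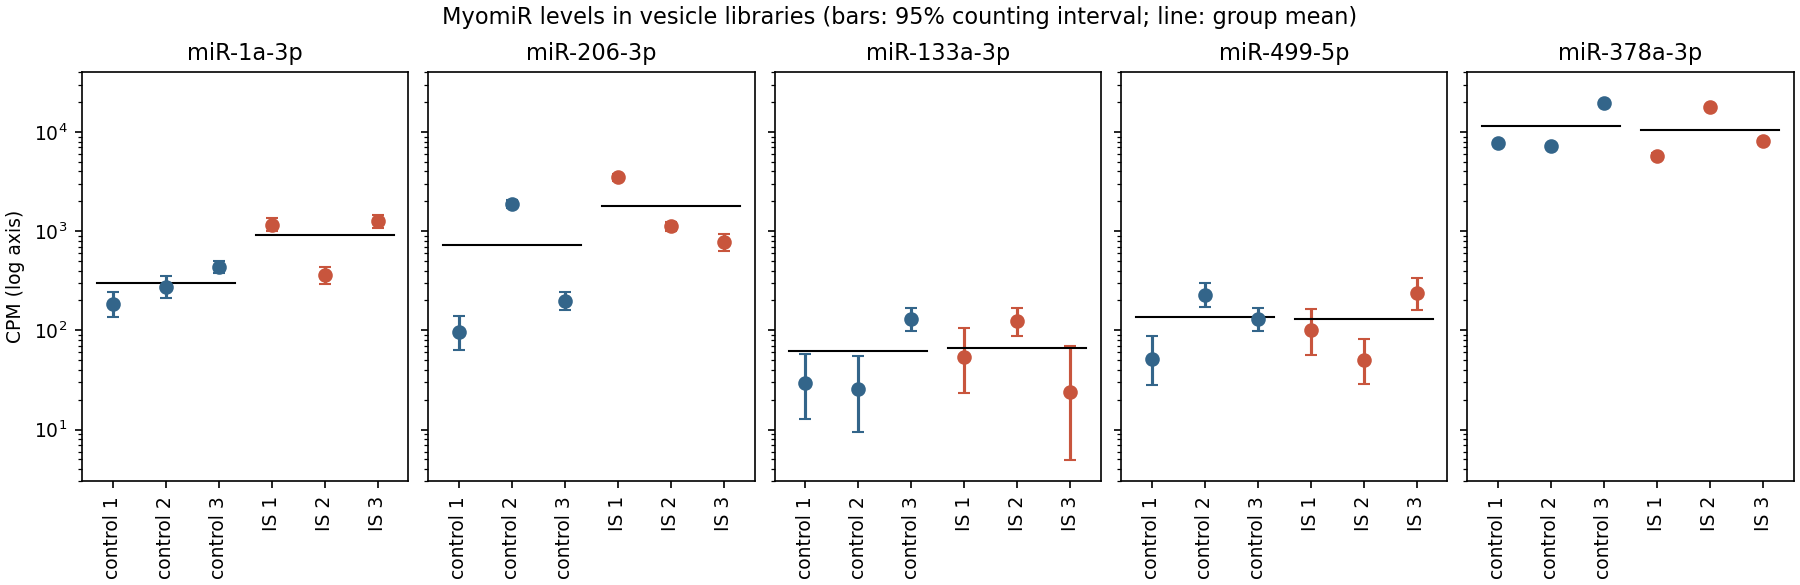
CPM on a log axis of the 5 distinct myomiRs in each control library (blue) and IS library (red), with bars for the exact 95% counting interval and a black line for the mean of each group. In miR-1a-3p, IS 1 and IS 3 lie above all control libraries and IS 2 lies among them. miR-378a-3p lies above the other 4 in each library, with miR-206-3p closest to it in IS 1 (3485 against 5751 CPM).

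miR-1a-3p, which restrains proliferation and promotes differentiation of muscle cells, had 185, 276 and 436 CPM in control 1, 2 and 3 (50, 65 and 190 counts). In IS 1, 2 and 3 it had 1159.5, 359 and 1257 CPM (173, 114 and 158 counts). IS 1 and IS 3 were above every control library, and IS 2 was between control 2 and control 3, so the groups overlapped. The means were 299 ± 127 and 925 ± 492 CPM (SD, n = 3 per group), with a log2 fold change of 1.68 (95% confidence interval 0.32 to 3.04, SE 0.62, edgeR quasi-likelihood adjusted p = 0.996). The counting interval of 296 to 432 CPM in IS 2 did not reach the lower ends of 993 CPM in IS 1 and 1068 CPM in IS 3, so the IS libraries differed from each other by more than counting error. IS 1 and IS 3 were also the libraries with the smallest totals, and the part of depth in the difference was not tested. In CPM, more muscle vesicles, more copies per vesicle and fewer reads of other miRNAs cannot be told apart.

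Leaving out 1 library and refitting the filter and the scaling, as for the other members, moved the log2 fold change of miR-1a-3p to between 1.10 (without control 1) and 2.01 (without IS 2), always on the side of IS. It was 1.11 without IS 3 and 1.13 without IS 1. With the filter and the scaling kept it was 1.61 without IS 3 and 1.27 without IS 1. It was then 1.52 without control 1 and 2.06 without IS 2. Between the libraries with the highest leukocyte sums, control 3 and IS 2, the levels of miR-1a-3p were 436 and 359 CPM. Among the other 4 libraries they were 185 and 276 CPM in control and 1159.5 and 1257 CPM in IS. Control 3 and IS 2 were also the deepest libraries, with the highest red cell sums (186873 and 223132 CPM) and the lowest sums of vessel wall and platelet miRNAs (9055 and 4834 CPM). This division of the libraries was seen in the data, and its part in the difference was not tested.

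miR-206-3p, the skeletal muscle miRNA, was the most variable of the set. It had 96.2, 1892 and 199.8 CPM in control 1, 2 and 3, and 3485, 1122 and 771 CPM in IS 1, 2 and 3. Control 2 was above IS 2 and IS 3, and the other control libraries were below all IS libraries. The highest level was 36.2 times the lowest, and the SD of log2(CPM + 1) over the 6 libraries was 1.96, larger than that of 84.5% of the miRNAs tested (median 0.90). The group means were 729 ± 1008 and 1793 ± 1476 CPM (SD, n = 3 per group), and the log2 fold change was 1.55 (95% confidence interval -0.71 to 3.81, edgeR adjusted p = 0.996). It depended on single libraries, with 3.31 when control 2 was left out, 0.50 without control 1 and 0.21 without IS 1. With the filter and the scaling kept these values were 3.75, 1.05 and 0.42. Refitting thus went with a larger movement from the full fit without control 1 or IS 1, and with a smaller one without control 2.

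miR-133a-3p, which acts with miR-1 in muscle differentiation and represses serum response factor, was the least abundant member. It had 29.6, 25.5 and 130.9 CPM in control 1, 2 and 3, and 53.6, 122.9 and 23.9 CPM in IS 1, 2 and 3. Its counts were 8, 6 and 57 in control and 8, 39 and 3 in IS, so the value of IS 3 was at the floor of 3 counts. Control 3 and IS 2 were high and the other 4 low, 1 high library in each group. The log2 fold change was 0.28 (95% confidence interval -2.02 to 2.58, edgeR adjusted p = 0.996), and its sign turned when control 1 (-0.27), control 2 (-0.34) or IS 2 (-0.58) was left out, although with the filter and the scaling kept it stayed at 0.027 without control 1. Without control 3 it was 1.31.

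miR-499-5p, the myosin intron miRNA, had 51.8, 229.6 and 130.9 CPM in control 1, 2 and 3 (14, 54 and 57 counts). In the IS libraries it had 100.5, 50.4 and 239 CPM (15, 16 and 30 counts). The ranges of the groups were nearly the same, with a lowest value near 50.4 CPM and a highest near 239 CPM over the 6 libraries. The log2 fold change was -0.10 (95% confidence interval -1.91 to 1.71, edgeR adjusted p = 0.996), an interval that leaves room for a higher or a lower level in IS. The value was 0.16 without control 2, 0.25 without IS 2, -0.79 without control 1 and -1.07 without IS 3. With the filter and the scaling kept these values were 0.43, 0.27, -0.43 and -0.60.

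miR-378a-3p, linked to mitochondrial and fat metabolism, was the most abundant member. The margin was wide in the group means but smaller in IS 1, where miR-206-3p had 3485 CPM. miR-378a-3p had 7764, 7163 and 19696 CPM in control 1, 2 and 3, and 5751, 17729.6 and 8057 CPM in IS 1, 2 and 3. It held place 13 to 22 among the 620 miRNAs by level in the 6 libraries. As for miR-133a-3p, control 3 and IS 2 were the high libraries. The log2 fold change was -0.06 (95% confidence interval -1.34 to 1.23, edgeR adjusted p = 0.996), with a sign that turned to 0.03 under RLE scaling. Without control 3 it was 0.46, and without IS 2 it was -0.78.

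**Figure D2:**
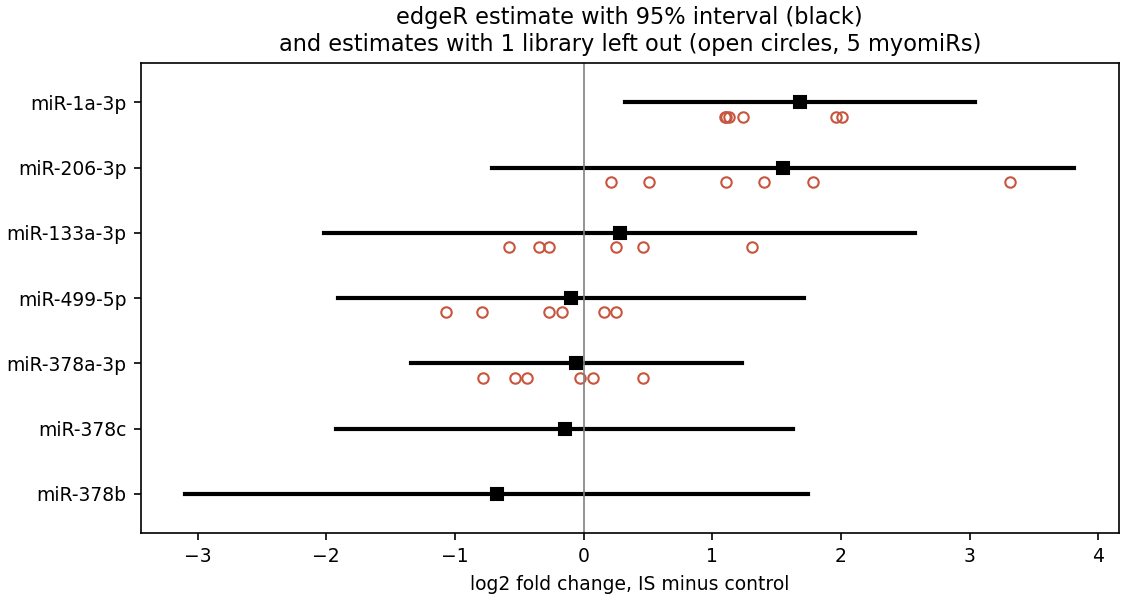
Log2 fold change of IS minus control (horizontal axis) from the edgeR fit on all 6 libraries, for the 5 myomiRs and for miR-378c and miR-378b. Squares are estimates and lines their 95% confidence intervals. Open circles are the estimates for the 5 myomiRs with 1 library left out and the filter and the scaling refitted. Of the 7 intervals, which are not adjusted for the number of miRNAs, that of miR-1a-3p, 0.32 to 3.04, lies above 0, and for miR-206-3p the open circles run from 0.21 to 3.31.

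By mean level over the 6 libraries the order was miR-378a-3p, miR-206-3p, miR-1a-3p, miR-499-5p and miR-133a-3p, at places 16, 54, 75, 132 and 174 of 620. miR-378a-3p was above the other members in 6 of 6 libraries, and miR-1a-3p was above miR-499-5p and miR-133a-3p in 6 of 6. miR-206-3p and miR-1a-3p did not differ beyond their spread, each being the higher in 3 libraries. The levels of miR-499-5p and miR-133a-3p also overlapped. Library preparation does not capture all miRNA sequences equally, so this order is one of reads and not of molecules.

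Ratios between members within a library need no scaling between libraries, and 5 were compared as log2 with 0.5 counts added to each side. With 3 libraries per group the exact two-sided permutation test cannot go below p = 0.1. miR-1a-3p and miR-133a-3p share their transcripts in muscle, and their ratio was 6.25, 10.8 and 3.33 in control 1, 2 and 3. In IS 1, 2 and 3 it was 21.6, 2.92 and 52.7. By value, IS 1 and IS 3 were above the control libraries and IS 2 below them. The counting interval of IS 2 overlapped those of control 1 (2.94 to 15.3) and control 3 (2.47 to 4.56). Those of IS 1 (10.7 to 50.9) and IS 3 overlapped that of control 2 (4.72 to 30.6), and that of IS 1 also that of control 1. With only 3 counts of miR-133a-3p the ratio of IS 3 had an exact 95% counting interval of 17.7 to 258. That of IS 2 was 2.02 to 4.32, so these 2 libraries of 1 group differed by more than counting error. The IS minus control difference was 1.25 in log2 (exact permutation p = 0.5, adjusted over the 5 ratios 0.625), with an SD of 0.80 among control and 2.04 among IS libraries. It was 0.40 without IS 3 and 2.38 without IS 2.

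The ratio of miR-206-3p to miR-1a-3p sets a skeletal muscle miRNA against the miRNA of both muscle types with the same seed. It was 0.520, 6.85 and 0.458 in control 1, 2 and 3, and 3.01, 3.12 and 0.614 in IS 1, 2 and 3. Control 2, IS 1 and IS 2 had several reads of miR-206-3p for each of miR-1a-3p, while in control 1, control 3 and IS 3 miR-1a-3p was the more abundant. The difference between groups was 0.60 in log2 (exact permutation p = 0.8), and leaving out control 1 or control 3 brought it to 0.019 or -0.077. It was 1.87 without control 2, 1.37 without IS 3, 0.23 without IS 1 and 0.20 without IS 2. Against miR-133a-3p, miR-206-3p stood at 3.25, 74.2 and 1.53 in control and at 65.0, 9.13 and 32.3 in IS, with a difference of 1.86 (exact permutation p = 0.4). This was 0.77 without control 3, 1.21 without IS 1 and 3.51 without control 2.

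The ratio of miR-499-5p to miR-1a-3p was the only one of the 5 whose groups did not overlap. It was 0.280, 0.831 and 0.300 in control 1, 2 and 3, and 0.0867, 0.140 and 0.190 in IS 1, 2 and 3. Each IS library thus had fewer reads of miR-499-5p per read of miR-1a-3p than each control library. However, the counting interval of control 1 (0.143 to 0.514) overlapped those of IS 1 (0.0475 to 0.147), IS 2 (0.0776 to 0.238) and IS 3 (0.124 to 0.282). That of control 3 (0.219 to 0.405) overlapped those of IS 2 and IS 3, and that of control 2 (0.568 to 1.21) overlapped none. The difference was -1.62 in log2 (exact permutation p = 0.1, the smallest the design allows, adjusted over the 5 ratios 0.5). Such a separation was common for ratios to miR-1a-3p. Of 193 tested miRNAs other than miR-1a-3p, with miR-499-5p among them, 39 (20.2%) had all IS ratios below all control ratios. Their median difference over the 193 was -1.54, and 83 were more negative than miR-499-5p. The value for miR-499-5p was therefore near that of a typical miRNA set against miR-1a-3p.

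miR-378a-3p had 42.0, 25.9 and 45.1 reads for each read of miR-1a-3p in control 1, 2 and 3. In IS 1, 2 and 3 it had 4.96, 49.4 and 6.41. IS 2 lay above the control libraries by value. Its counting interval (41.0 to 59.9) overlapped those of control 1 (31.7 to 56.7) and control 3 (39.1 to 52.4). IS 1 and IS 3 lay far below the control libraries. Their counting intervals (4.21 to 5.87 and 5.42 to 7.63) did not reach the lowest control interval (20.2 to 33.8). The difference was -1.65 in log2 (exact permutation p = 0.4, adjusted 0.625), with an SD of 0.44 among control and 1.81 among IS libraries. It was -1.04 without IS 1 and -2.69 without IS 2.

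**Figure D3:**
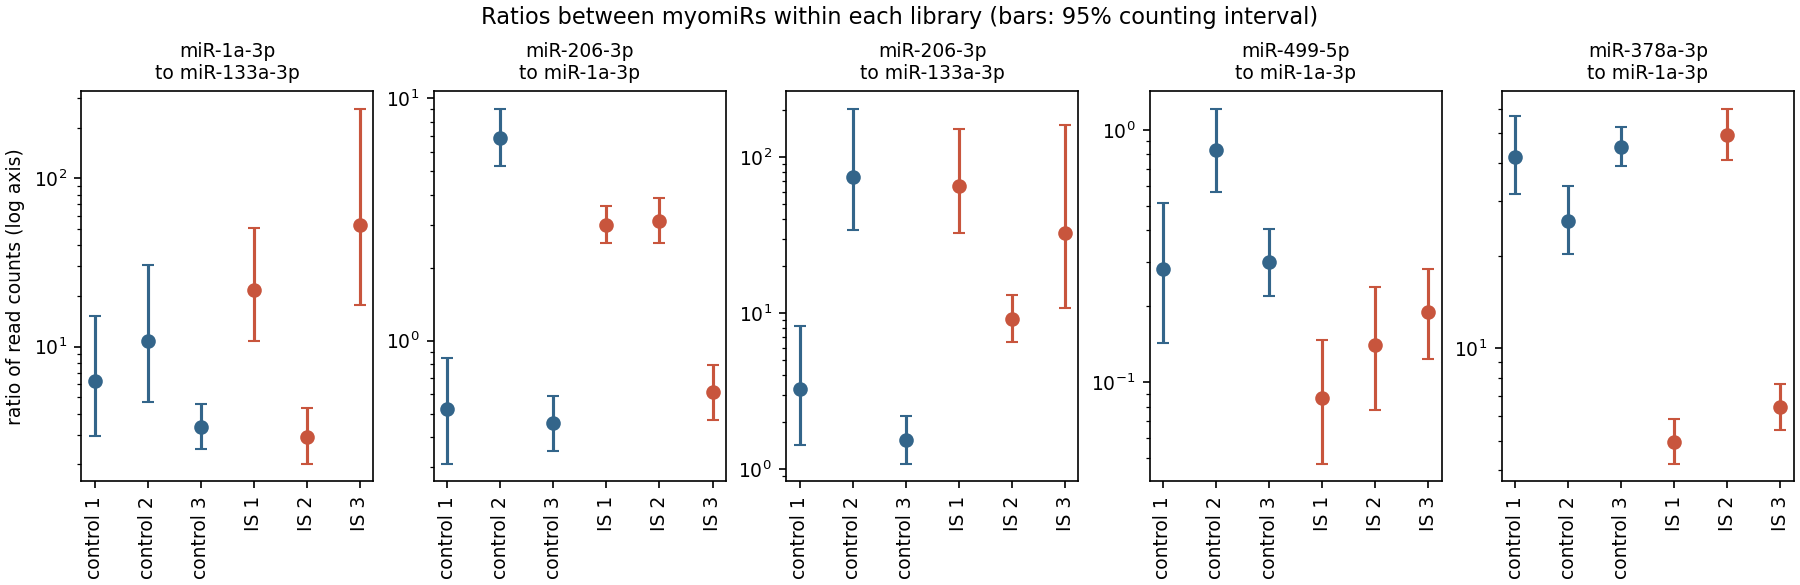
Ratio of read counts between members within each library, on a log axis with its own range in each panel, for the control libraries (blue) and the IS libraries (red), with exact 95% counting intervals. The ratio of miR-499-5p to miR-1a-3p separates the groups by value, at 0.280 to 0.831 in control and 0.0867 to 0.190 in IS, although counting intervals overlap. In the panels of miR-1a-3p to miR-133a-3p and miR-378a-3p to miR-1a-3p the library IS 2 lies apart from IS 1 and IS 3.

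Leaving aside the widely expressed miR-378a-3p, the 4 muscle-enriched members together had 363, 2423 and 898 CPM in control 1, 2 and 3, and 4799, 1654 and 2291 CPM in IS 1, 2 and 3. Control 2 lay within the IS range, so the groups overlapped here too. miR-206-3p made up 78.1% of these reads in control 2, 72.6% in IS 1 and 67.8% in IS 2. In control 1, control 3 and IS 3 its share was 26.5, 22.3 and 33.7%, and miR-1a-3p led with 51.0, 48.6 and 54.9%. miR-499-5p made up 9.47 to 14.6% in control and 2.09 to 10.4% in IS. With miR-378a-3p the sum was 8127 to 20594 CPM over the control libraries and 10348 to 19384 CPM over the IS libraries, or 0.813 to 2.06% of a library, and 54.5 to 95.6% of it was miR-378a-3p.

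**Figure D4:**
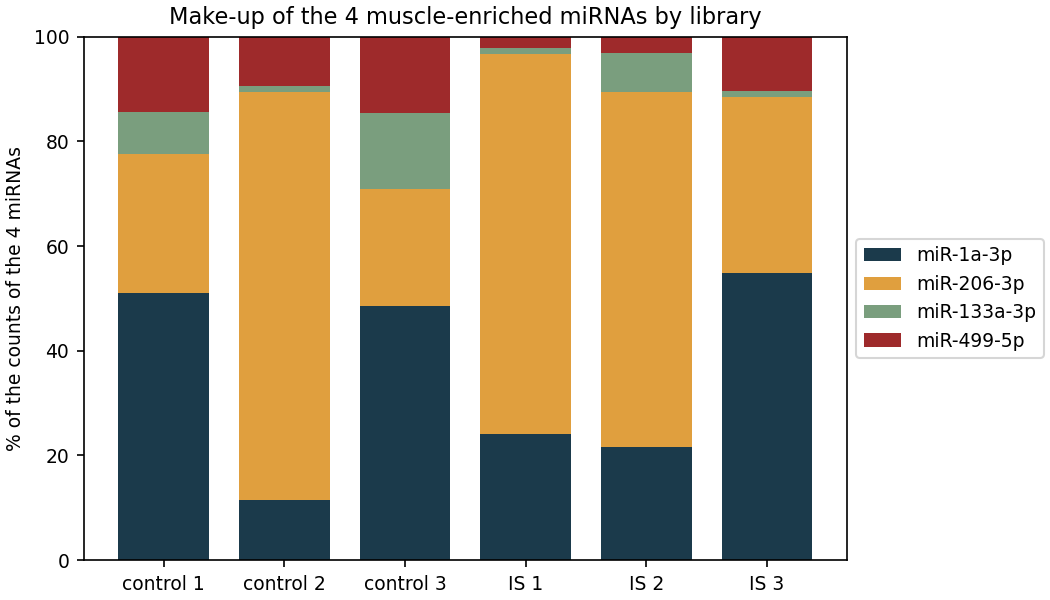
Make-up of the reads of miR-1a-3p, miR-206-3p, miR-133a-3p and miR-499-5p in each library, as a percentage of their sum (vertical axis). miR-206-3p takes most of the bar in control 2, IS 1 and IS 2, and miR-1a-3p has the largest share in control 1, control 3 and IS 3.

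The members did not vary as 1 block over the 6 libraries. Of the 10 pairs of members, miR-133a-3p and miR-378a-3p had the highest correlation of log2(CPM + 1), with Pearson r = 0.829 (permutation p = 0.119, adjusted over 10 pairs 0.782) and Spearman rho = 0.486 (permutation p = 0.356, adjusted 0.889). The positive value rested on control 3 and IS 2, the libraries farthest from the median of miR-133a-3p. Without them r was -0.925 over the remaining 4 libraries, where miR-133a-3p had 8, 6, 8 and 3 counts. The sign of that value therefore rests on few reads. For the transcript partners miR-1a-3p and miR-133a-3p, r was -0.044 (permutation p = 0.894) and rho -0.086 (permutation p = 0.919). Without IS 1 and IS 3, the libraries farthest from the median of miR-1a-3p, that r was 0.846 over 4 libraries. The seed partners miR-1a-3p and miR-206-3p had r = 0.535 (permutation p = 0.283) and rho = 0.314 (permutation p = 0.564), with r = 0.311 without IS 1 and IS 3.

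Beyond the 6 names, 17 further miRNAs of muscle or of the same hairpins and families were looked up, and 8 of them had a row in the table. The other 9, miR-208a-3p of the heart myosin gene Myh6 among them, were not analysed here. Of the 8, 2 passed the filter on low counts, miR-378c and miR-378b, and 0 passed the threshold. miR-378c had 1076, 1322 and 5842 CPM in control 1, 2 and 3 and 791, 4853 and 1089.6 CPM in IS 1, 2 and 3 (log2 fold change -0.15, 95% confidence interval -1.93 to 1.63). miR-378b had 85.1, 85.0 and 675 CPM in control and 73.7, 362 and 15.9 CPM in IS (log2 fold change -0.67, 95% confidence interval -3.10 to 1.75). In both, control 3 and IS 2 were again the high libraries.

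The remaining 6 were near or under the floor of 3 counts in most libraries. miR-133b-3p, whose hairpin neighbours that of miR-206, had 0, 5 and 3 counts in control 1, 2 and 3 and 3, 6 and 0 in IS 1, 2 and 3. In the same libraries its neighbour miR-206-3p had 26 to 520 counts. The heart and slow muscle miRNA miR-208b-3p, from an intron of Myh7, had 1, 0 and 6 counts in control and 0, 2 and 0 in IS. The opposite arms of 2 members were low as well: miR-133a-5p had 12 counts over all libraries against 121 for miR-133a-3p, and miR-378a-5p had 22 against 19858 for miR-378a-3p. miR-133b-5p had 5 counts in all and miR-378d 1.

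The miR-378 family did not keep a fixed make-up. There were 7.21, 5.42 and 3.37 reads of miR-378a-3p for each read of miR-378c in control 1, 2 and 3, and 7.27, 3.65 and 7.39 in IS 1, 2 and 3. The counting intervals of control 3 (3.23 to 3.53) and IS 2 (3.45 to 3.87) lay below those of the other 4 libraries, of which the lowest was 4.80 to 6.13. This ratio thus set the same libraries apart as the level of miR-378a-3p did, 1 of each group. These are near-identical miRNAs, how reads that fit several members were counted is not given in the sources used here, and the ratio was examined after its values had been seen. In control 3 and IS 2, the deepest libraries, the summed leukocyte miRNAs were 1.50 and 1.87 times their mean over the 6 libraries, miR-378a-3p 1.79 and 1.61 times, and miR-133a-3p 2.03 and 1.91 times. In the same libraries miR-1a-3p was at 0.713 and 0.587 times its mean. The leukocyte miRNA miR-223-3p did not follow the sum, with 68.9 and 18.9 CPM in control 3 and IS 2 against 208 in control 2 and 255 in IS 3. The part of leukocyte vesicles or of depth in the levels of miR-378a-3p and miR-133a-3p was not tested.

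**Figure D5:**
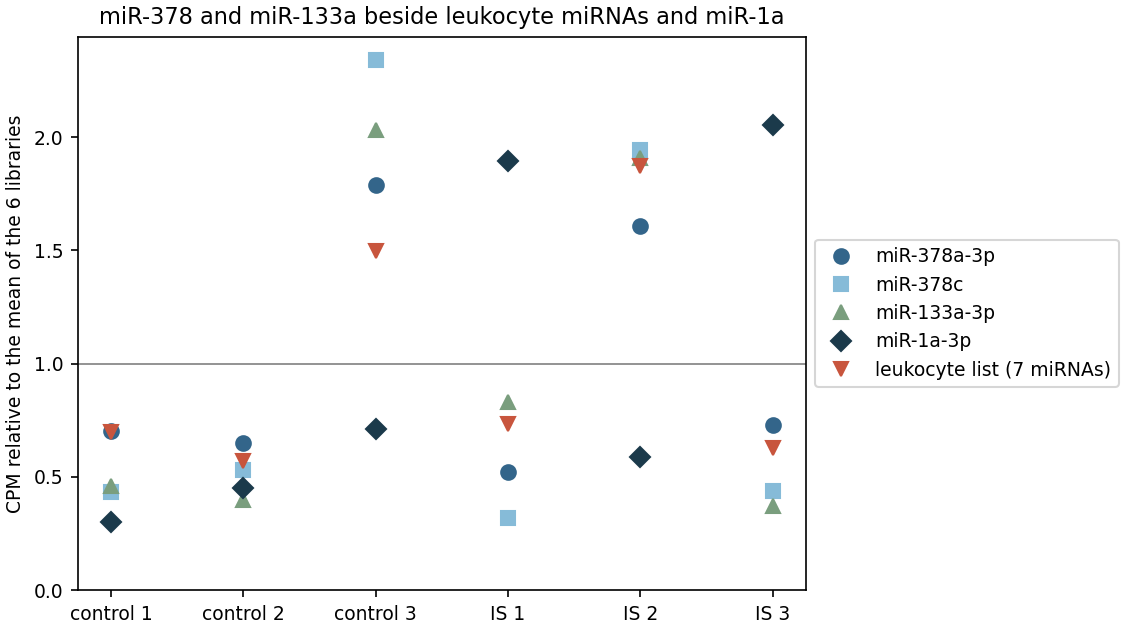
CPM in each library divided by the mean over the 6 libraries (vertical axis) for miR-378a-3p, miR-378c, miR-133a-3p, miR-1a-3p and the sum of the 7 leukocyte miRNAs. All but miR-1a-3p lie above 1 in control 3 and IS 2 and below 1 elsewhere, while miR-1a-3p lies above 1 in IS 1 and IS 3.

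For each member the 3 tested miRNAs with the most similar log2(CPM + 1) over the 6 libraries were listed by Pearson r, as a description of 6 libraries that share differences in depth and make-up. Nearest to miR-1a-3p was miR-181d-5p (r = 0.904), whose 44.4, 68.0 and 115 CPM in control were all below its 221, 167 and 231 CPM in IS, then miR-129-5p (0.832) and miR-466i-5p (0.820). For miR-133a-3p these were miR-15b-3p (0.969), miR-22-3p (0.966) and miR-299a-3p (0.946). miR-22-3p, itself abundant in muscle and in blood cells, had 1531, 820.5 and 5529.7 CPM in control and 1669, 5874 and 1129 CPM in IS, high in control 3 and IS 2 as miR-133a-3p was. For miR-206-3p they were the epithelial miRNA miR-205-5p (0.931), miR-760-3p (0.858) and miR-30f (0.823). Nearest to miR-499-5p was miR-223-3p (0.973), a miRNA of neutrophils and monocytes, with 29.6, 208 and 68.9 CPM in control and 87.1, 18.9 and 255 CPM in IS, followed by miR-134-5p (0.934) and miR-152-3p (0.890). For miR-378a-3p they were its relative miR-378c (0.987), miR-30b-5p (0.976) and miR-1843a-5p (0.963). The 5 lists had no miRNA in common, and no list held another member. miR-760-3p was under the floor of 3 counts in control 1, control 3 and IS 2 (0, 2.30 and 3.15 CPM). miR-129-5p was under it in control 1 (3.70 CPM). The cut after 3 names marked no gap, since the fourth r was close to the third in each list (0.962 against 0.963 for miR-378a-3p).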

How the data were processed

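Per the labels' protocols, a Qiagen exoRNeasy kit gave the vesicle RNA and an NEBNext small RNA set the libraries. The submitters' processing notes list CASAVA 1.8 and Bowtie. For the genome build, miRBase release, filters and use of strand, the entry is: not given in the sources used here. Read counts were deposited by the authors, as were TPM values, for 620 miRNAs in each library, per the file headers. The deposited TPM equals the count per 1000000 counts of the library (largest difference 4.8e-10), so it is called CPM. edgeR 4.0.16 was run on the counts with TMM factors, no covariate and Benjamini-Hochberg adjustment over the 206 miRNAs that filterByExpr kept (at least 10 counts, total of at least 15). Intervals of counts are exact Clopper-Pearson 95% intervals. Reads without molecular identifiers are not independent molecules, so these intervals and the floor of 3 counts cover counting error only. Ratios were compared with exact permutation tests (scipy 1.17.1). Alternatives included DESeq2 1.42.0 and limma 3.58.1 on log2 values. The edgeR script was tested on simulated data. Repeated rows, left out in 1 alternative, were those within 2 counts or 6% of another row throughout. Members, lists and tests were chosen with earlier results of these data known. Named were the members, the further muscle miRNAs with a row, the 3 most similar miRNAs per member and the marker lists. Sequences came from RefSeq (483 of 620 rows matched).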

Additional observations from a re-analysis of the deposited data

How the results depend on the processing

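No member and no other miRNA passed the threshold under any alternative run (22 for the count of calls, 0 in each), which included other scaling, other filters, DESeq2, limma, repeated rows left out and each library left out. The log2 fold changes of miR-1a-3p and miR-206-3p kept their sign in all 21 alternatives each, from 1.10 to 2.06 and from 0.21 to 3.75. With a library left out, filter and scaling refitted or kept, that of miR-133a-3p ran from -0.58 to 1.31, that of miR-499-5p from -1.07 to 0.43 and that of miR-378a-3p from -0.78 to 0.46. For miR-378a-3p it also turned to 0.033 with RLE factors, 0.026 with no filter and 0.041 with DESeq2. The difference in the ratio of miR-206-3p to miR-1a-3p ran from -0.077 to 1.87 with a library left out, and the other 4 ratios kept their sign in all 8 alternatives. The cause of these turns was not tested. The labels do not say that equal numbers mark pairs, so the numbers were not taken as pairs. Deviations from the group means had r = 0.314, -0.327 and -0.054 between the libraries of numbers 1, 2 and 3. With means of 3 libraries these values cannot show whether pairs exist. With the replicate block the values were 1.53 for miR-1a-3p, 2.02 for miR-206-3p and 0 miRNAs past the threshold. Refitting the filter and the scaling without a library gave 209 to 229 tested miRNAs with a median of -0.27 to 0.050. Depth limits miR-133a-3p most, with 3 to 8 counts in 4 libraries.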
